A study of Mus musculus with 7 samples.

Results

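Mammary glands of lactating mice were compared for the mRNA levels of 43 genes of glycolysis, the pentose phosphate pathway and the tricarboxylic acid (TCA) cycle, among 37310 genes counted by RNA sequencing. The genes were chosen by function, with earlier results of these data known. They comprised 16 genes of glycolysis and lactate dehydrogenase, 7 of the pentose phosphate pathway, and 20 of the route from pyruvate through pyruvate dehydrogenase, pyruvate carboxylase and the TCA cycle. All 43 were matched by symbol to the GENCODE vM1 annotation of the mouse build NCBIM37 (mm9), in which *Pkm* carries its older name *Pkm2*, and all 43 were measured at levels high enough to be tested. The libraries came from whole mammary gland of C57BL/6 mice at lactation day 1 (L1), 3 labelled wild type (WT) and 4 labelled *Tardbp* KO, and the age of the mice is not given in the sources used here. In the KO group, floxed *Tardbp*, which encodes the RNA-binding protein TDP-43, was deleted over exons 2 and 3 by Cre recombinase under the whey acidic protein (WAP) promoter. This promoter is active from mid-pregnancy to lactation in luminal epithelial cells, so other cells of the gland keep the gene, and the WT mice carried WAP-Cre as well.

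Glucose enters the lactating epithelial cell and is used for several products of milk at once. Glycolysis splits glucose phosphate to pyruvate, which lactate dehydrogenase can reduce to lactate, and the pentose phosphate pathway oxidises glucose phosphate to supply NADPH for fatty acid synthesis. Pyruvate enters the mitochondrion, where pyruvate dehydrogenase turns it into acetyl-CoA and pyruvate carboxylase into oxaloacetate, and the citrate made from both can leave for lipid synthesis or be oxidised in the TCA cycle. In lactating mammary gland these routes feed the synthesis of lactose and of milk fat.

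Each library held 36007737 to 42811337 counts, and levels are given as CPM (counts scaled to a common library size) after trimmed mean of M values (TMM) scaling, a method that adjusts for a few genes taking a large share of the counts. The scaling factors lay between 0.781 and 0.909 in WT and between 1.00 and 1.23 in KO, and the 7 milk protein genes took 26.3% to 34.0% of counts in WT and 12.7% to 21.8% in KO. *Tardbp* itself, the targeted gene, had 223, 178 and 159 CPM in WT and 214, 176, 154 and 208 CPM in KO (log2 fold change 0.01 ± 0.18 SE, edgeR adjusted p = 0.982), a count over all exons of all cells of the gland that does not check the deletion. *Masp2*, on the opposite strand, shares 24.3% of the exon bases of *Tardbp*, and the counting did not use strand. Epithelial markers were present in all libraries, with *Krt8* at 407, 588 and 478 CPM in WT and 698, 604, 751 and 819 CPM in KO. By the lanes in the labels, WT replicates 1 to 3 were read in lanes 3, 4 and 2 and KO replicates 1 to 4 in lanes 1, 5, 4 and 4, so only lane 4 held both genotypes.

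Relative to the bulk of the transcriptome, most of the fitted fold changes of the enzyme genes were negative in KO glands. Of the 43 genes, 39 had a negative fitted log2 fold change, where 45.7% of the 17175 genes tested did, and the median over the 43 was −0.39 beside 0.05 over all genes tested. Summed over the 43 genes, the WT libraries held 12525, 10810 and 12378 CPM and the KO libraries 7590.3, 7892, 7552 and 9830.4 CPM, in the order of the replicates. The groups did not overlap, and the KO mean was 31.0% below the WT mean (8216 ± 1087 against 11904 ± 950.3 CPM, SD, n = 4 and 3). With the same scaling, the sum over all genes tested was itself 22.7% lower in KO. That difference follows from the scaling factors, since with library size alone this sum is nearly equal in all libraries (0.019% higher in KO). With library size alone the sums over the 43 were 9786, 9829.7 and 11198 in WT and 8364.5, 9060.0, 9274 and 9850.1 in KO, 11.04% lower, and KO replicate 4 lay above WT replicates 1 and 2. *Gpi1*, *Pfkp*, *Idh1* and *Idh2* were the 4 genes with a positive fold change. Under scaling to library size alone the median of all genes moved to 0.42, 22 of the 43 genes stayed negative, and 39 still lay below the median of all genes, so that every direction given here is relative to the bulk of the transcriptome. The difference between the median of the 43 and that of all genes was −0.44 with TMM and −0.43 with library size alone.

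The edgeR quasi-likelihood test called none of the 43 at the limits of the study (adjusted p under 0.01 and more than 1 on the log2 scale), limits at which it called 0 of all 17175 genes (0%). At an unadjusted p under 0.05, 21 of the 43 were lower in KO and 0 were higher, where 10.7% of all genes tested were lower and 10.7% were higher. The shares over all genes were not matched for level. The median WT level was 42.7 RPKM (counts scaled by exon length and depth) for the 43 and 3.53 for all genes tested. At an adjusted p under 0.1, 12 were lower (*Hk2*, *Pfkl*, *Aldoc*, *Pgam1*, *Ldha*, *Pgd*, *Rpe*, *Pdhb*, *Dlat*, *Dld*, *Mdh1* and *Pcx*) and 0 were higher, against 3.22% and 2.21% of all genes. In 19 of the 43 the KO libraries were all lower than the WT libraries and in 0 all higher, while this held for 9.62% and 9.07% of all genes. At the limits of the study, edgeR's exact test and DESeq2 each called 5 of the 43, *Hk2*, *Pfkl*, *Aldoc*, *Pdhb* and *Pcx*, all lower, and 0 as higher. Of all genes, the exact test called 1.44% lower and 1.04% higher, and DESeq2 1.63% and 1.68%. The calls at an adjusted p under 0.1, 12 of the 43 and 933 of all genes, depended on single libraries across the whole transcriptome. Without WT replicate 1, WT replicate 3, KO replicate 1 or KO replicate 3, none of the 43 passed and 0, 0, 2 and 1 of all genes did. Without KO replicate 2, 5 of the 43 and 584 of all genes passed, without KO replicate 4, 13 and 1725, and without WT replicate 2, 17 and 2244. Within lane 4 alone, KO replicates 3 and 4 against WT replicate 2, the median of the 43 was −0.22, with no test.

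**Figure D1:**
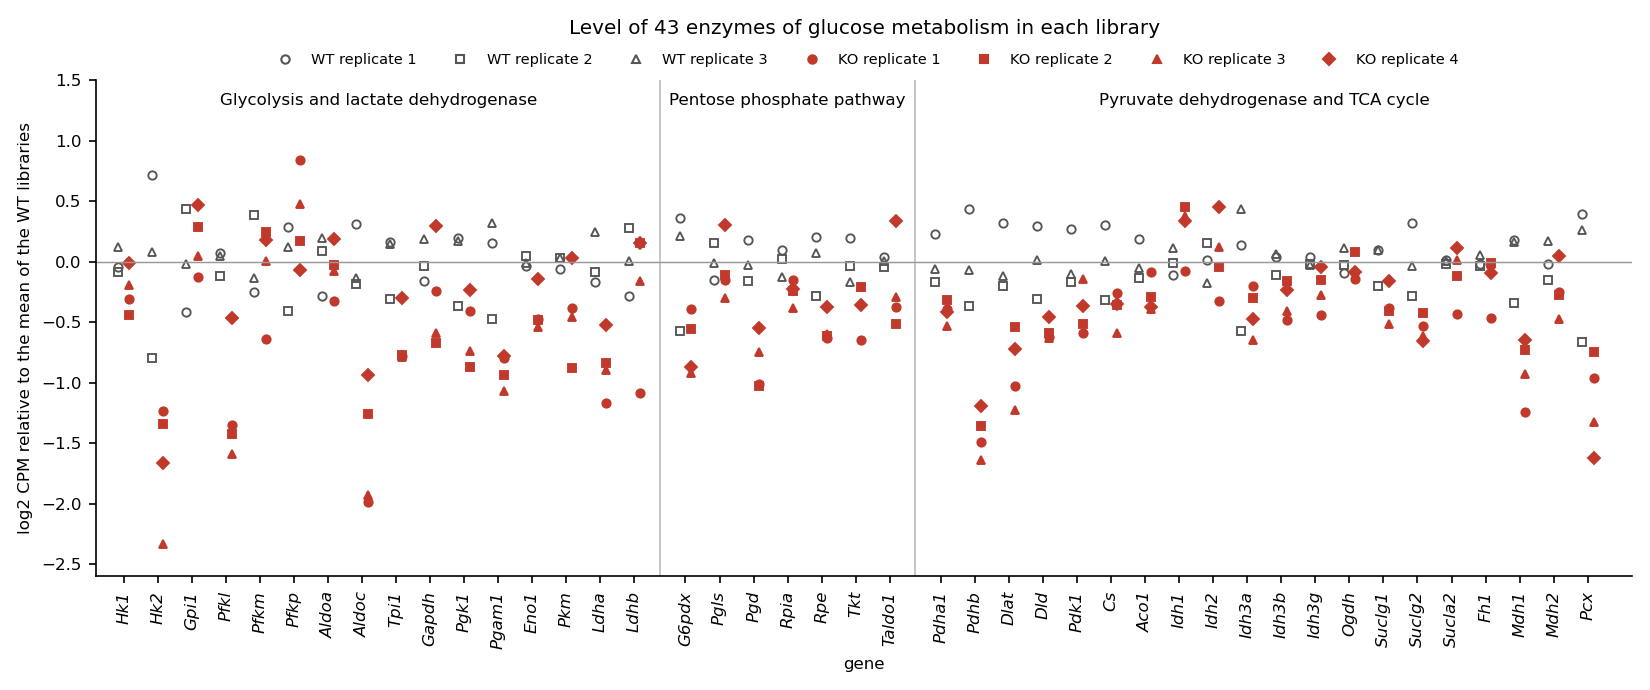
Level of each of the 43 genes in each library, as log2 CPM after TMM scaling minus the WT mean, with open grey symbols for WT and filled red symbols for KO. In 19 genes all 4 red symbols lie below all 3 grey ones, and KO replicate 4 (diamonds) is often the highest of the red symbols. With library size alone in place of TMM, 17 of the 43 genes change the sign of their fold change.

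KO replicate 4 had the fewest of the 43 genes below all WT libraries. It lay below all WT libraries in 24 of the 43 genes, compared with 36, 31 and 32 genes in KO replicates 1 to 3, and above all WT libraries in 8 genes, compared with 1, 1 and 2. Over all 17175 genes tested, KO replicates 1 to 4 lay below all WT libraries in 5144, 4817, 5073 and 5189 genes. They lay above all WT libraries in 5345, 5680, 5666 and 5287 genes, so KO replicate 4 was not nearest to WT by every count. Without KO replicate 4, 25 of the 43 genes were lower at an unadjusted p under 0.05, and 12.2% of all genes. Lymphocyte markers and milk protein genes also differed between the genotypes. The summed level of 10 lymphocyte markers was 38.2 to 55.7 CPM in WT and 405.7, 65.3, 553.8 and 123.1 CPM in KO replicates 1 to 4, and 10 of 10 were higher at an unadjusted p under 0.05. All 7 milk protein genes were lower in every KO library than in any WT library (median log2 fold change −1.10), 5 of them at an unadjusted p under 0.05, whereas 6 luminal markers had a median of 0.40, with *Krt8* and *Cdh1* higher and *Elf5* lower at an unadjusted p under 0.05. The medians of the other marker lists were 0.57 for 6 myeloid genes, 0.23 for 6 adipocyte genes, −0.04 for 6 endothelial genes, −0.08 for 6 fibroblast genes and −0.24 for 7 myoepithelial genes, the last 3 turning positive with library size alone, and in these lists 1 endothelial gene, which was higher, and 0 others passed an unadjusted p under 0.05. Skeletal muscle markers were near 0 throughout, their summed level lying between 2.53 and 8.33 CPM with *Myh1* and *Myh4* too low to test. The part of these lists in the levels of the enzymes was not tested, and in whole gland, fewer cells of a type cannot be told apart from less RNA per cell. Without KO replicates 1 and 3, the libraries with the highest lymphocyte marker sums, 14 of the 43 genes were lower and 0 higher at an unadjusted p under 0.05, beside 7.07% of all genes lower, and 0 of the 43 and 0 of all 16978 genes passed an adjusted p under 0.1.

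**Figure D2:**
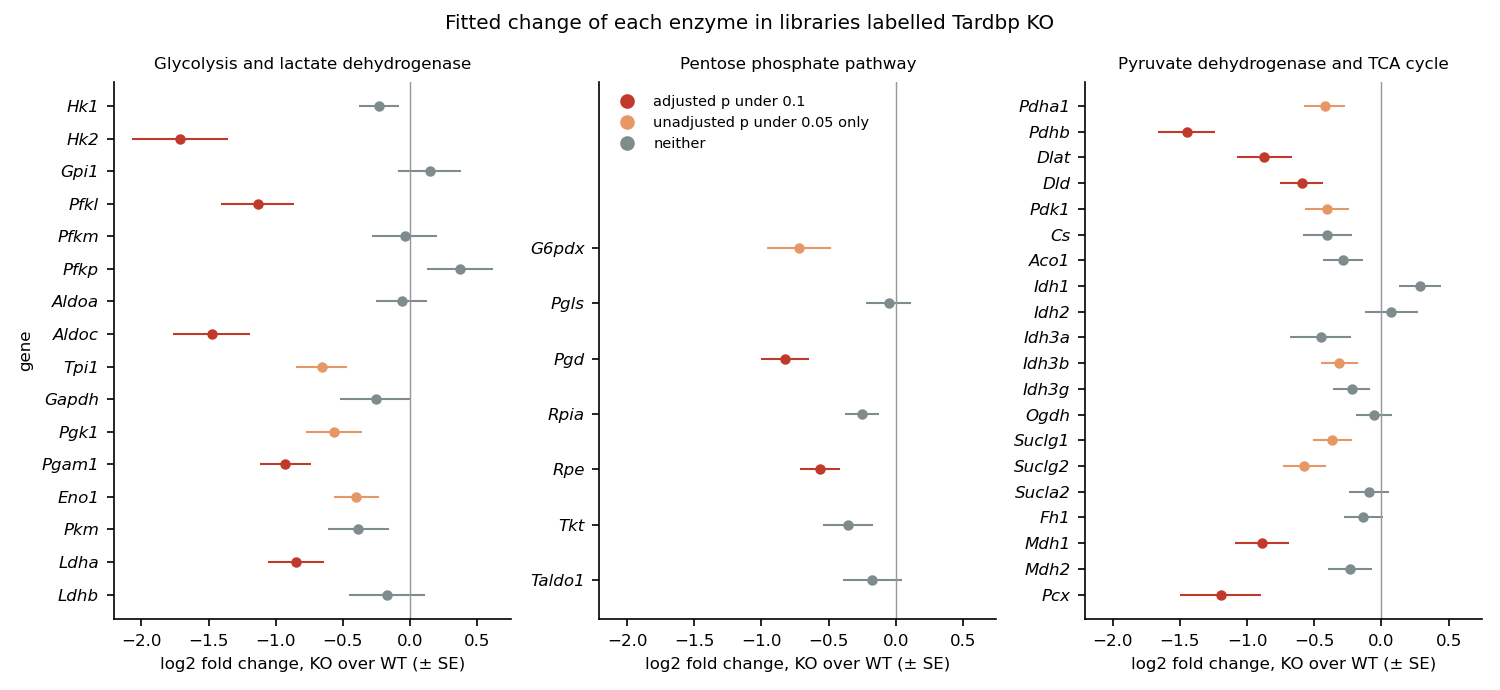
Fitted log2 fold change (KO over WT, points) with its standard error (bars) for each gene, by pathway, after TMM scaling. The 12 red genes have an adjusted p under 0.1 and the orange ones only an unadjusted p under 0.05, all of them to the left of 0. With library size alone, *Idh3b* and *Suclg1* among these move to the right of 0.

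Hexokinase phosphorylates glucose on entry and so keeps it in the cell. *Hk2* (chr6:82675019-82724448, minus strand), the insulin-responsive form that binds mitochondria, had 118, 41.3 and 76.1 CPM in WT and 30.5, 28.3, 14.2 and 22.6 CPM in KO. Every KO library lay below every WT library, although the WT libraries themselves spread widely. The log2 fold change was −1.71 ± 0.36 (SE), the largest negative change among the 43, with an adjusted p of 0.0752 that ranged from 0.000555 to 0.310 over the alternatives. *Hk1*, the constitutive form, had 131, 127 and 147 CPM in WT and 109, 99.6, 118 and 134 CPM in KO. Its groups overlapped and it did not pass the test (log2 fold change −0.23 ± 0.15, adjusted p = 0.408).

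TDP-43 binds RNA at repeats of UG, and *Hk2* was the only one of the 43 whose longest coding transcript held a run of 6 or more UG. The run lies in the 3′ UTR (exon 18 of 18) and counts 11 UG, and shorter runs of 4 UG lie beside it and in the coding part of exon 10. The sequences are shown because this kind of repeat is the motif the protein is known for. They are given in transcript orientation in DNA letters from NCBIM37, with the UG run in capitals, for *Hk2* and for *Idh1* and *Suclg2*, the other members with a run of 4.
Hk2, 3′ UTR, chr6:82675286-82675307, minus strand: TGTGTGTGTGTGTGTGTGTGTG
Hk2, 3′ UTR, chr6:82675310-82675317, minus strand: aggggTGTGTGTGtatgt
Hk2, coding, exon 10, chr6:82686542-82686549, minus strand: acttaTGTGTGTGccact
Idh1, 3′ UTR, chr1:65205596-65205603, minus strand: tgtacTGTGTGTGggaga
Suclg2, 3′ UTR, chr6:95423218-95423225, minus strand: ccaatTGTGTGTGtttgg
The coordinates span the capitals. A run of 3 or more UG was found in 30 of the 43 genes (69.8%) and in 71.5% of 15112 tested genes with a coding transcript, and a run of 6 or more in 1 (2.33%) and in 6.33%. *Idh1*, with its run of 4, had a positive fold change and *Suclg2* a negative one. A run of letters is a description of the transcript and not a measured binding site.

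Glucose phosphate isomerase, *Gpi1*, interconverts glucose 6-phosphate and fructose 6-phosphate. It had 249.9 ± 73.8 CPM in WT and 276 ± 50.2 CPM in KO (SD, n = 3 and 4 as in all such pairs), a log2 fold change of 0.15 ± 0.23, and 16.5% of its exon bases overlap *Gm17327* on the other strand. Phosphofructokinase is the first committed step of glycolysis, and its liver-type subunit *Pfkl* (chr10:77449692-77472828) was the most abundant of the genes for this enzyme, at 87.6 RPKM (counts scaled by exon length and depth) in WT against 9.02 for *Pfkm* and 3.04 for *Pfkp*. *Pfkl* had 403, 354 and 398 CPM in WT and 151, 143, 128 and 279 CPM in KO. The 3 WT libraries were close together, KO replicates 1 to 3 lay well below them, and KO replicate 4 lay between. The log2 fold change of *Pfkl* was −1.14 ± 0.27 (adjusted p = 0.0848, 0.00358 to 0.349 over the alternatives). The muscle-type subunit *Pfkm* had 22.7, 35.4 and 24.6 CPM in WT and 17.4, 32.1, 27.2 and 30.5 CPM in KO (log2 fold change −0.04 ± 0.24). The platelet-type subunit *Pfkp* had 34.1, 21.1 and 30.4 CPM in WT and 50.1, 31.5, 38.9 and 26.8 CPM in KO (log2 fold change 0.37 ± 0.25). Both overlapped between genotypes and neither passed the test.

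Aldolase cleaves fructose bisphosphate to triose phosphates. *Aldoc* (chr11:78136470-78141283) had 857, 608 and 627 CPM in WT and 174, 288, 181 and 359 CPM in KO. The highest KO library lay well under the lowest WT library, and the log2 fold change was −1.48 ± 0.29 (adjusted p = 0.0712, 0.000128 to 0.310 over the alternatives). *Aldoa*, the isoform of most tissues, had 338, 439.6 and 471 CPM in WT and 328, 404, 391.67 and 470.0 CPM in KO. It overlapped between genotypes, with a log2 fold change of −0.06 ± 0.19. Among the 8 genes from hexokinase to aldolase, therefore, *Hk2*, *Pfkl* and *Aldoc* were lower at an unadjusted p under 0.05 and the other 5 did not pass. Over all genes tested, 10.7% were lower at that limit.

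From triose phosphate to pyruvate, all 6 genes had negative fold changes (5 with library size alone, where *Gapdh* turned positive) and 4 were lower at an unadjusted p under 0.05, and these steps have a single main gene each in this tissue. Over all genes tested, 10.7% were lower at that limit. *Pgam1*, phosphoglycerate mutase, had 84.3, 54.5 and 94.7 CPM in WT and 43.8, 39.7, 36.1 and 44.1 CPM in KO, without overlap (log2 fold change −0.93 ± 0.19, adjusted p = 0.0752). Triose phosphate isomerase, *Tpi1*, had 288 ± 50.3 CPM in WT and 182 ± 32.6 in KO (log2 fold change −0.66 ± 0.19, unadjusted p = 0.00749). Phosphoglycerate kinase, *Pgk1*, which makes the first ATP of the pathway, had 188 ± 38.3 and 127 ± 25.9 CPM (log2 fold change −0.56 ± 0.21, unadjusted p = 0.0245). Enolase, *Eno1*, did not overlap between genotypes at 670.5 ± 19.8 and 508 ± 67.4 CPM (log2 fold change −0.40 ± 0.17, unadjusted p = 0.0436). *Gapdh*, often used as an internal control for mRNA and the most abundant of the 43 per length (483 RPKM in WT), had 970.1, 1059.6 and 1236 CPM in WT and 917, 678, 720.0 and 1329 CPM in KO. KO replicate 4 was its highest library and KO replicates 2 and 3 its lowest, so the KO group spanned the whole WT range (log2 fold change −0.26 ± 0.27, adjusted p = 0.625, and 0.08 with library size alone). *Pkm*, pyruvate kinase, the last step of glycolysis, had 903, 964 and 964 CPM in WT and 725, 512, 686 and 966 CPM in KO (log2 fold change −0.39 ± 0.23, adjusted p = 0.373). Its WT libraries nearly coincided while KO replicate 4 reached their level, and it did not pass the test.

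Several of these genes have processed copies in the genome, and the deposited counting left out reads placed at several sites. Of the 100-base windows of the longest coding transcript, 89.8% in *Pgk1*, 87.1% in *Pgam1*, 85.1% in *Gapdh* and 59.0% in *Eno1* occur identically elsewhere in NCBIM37, and at most 19.6% in any other of the 43. The levels of these 4 genes are therefore uncertain, and the read length is not given in the sources used here. Over the 39 other genes, a set drawn after the values were seen, the median was −0.37, with 18 lower at an unadjusted p under 0.05 and 11 at an adjusted p under 0.1. The shares of all genes tested that were lower at these limits were 10.7% and 3.22%.

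Lactate dehydrogenase is built from A and B subunits. *Ldha* (chr7:54096845-54110997), the A subunit and the third most abundant of the 43 per length, had 883, 936 and 1178 CPM in WT and 441, 554, 534 and 690.5 CPM in KO. The highest KO library stayed under the lowest WT library (log2 fold change −0.85 ± 0.21, adjusted p = 0.0874). *Ldhb*, the less abundant of both per length in WT (37.2 against 335 RPKM), had 47.3, 70.0 and 57.7 CPM in WT and 27.2, 64.3, 51.5 and 64.1 CPM in KO. Only KO replicate 1 lay below the WT libraries (log2 fold change −0.17 ± 0.29).

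Glycolytic genes are known targets of the hypoxia-inducible factor HIF-1 and of MYC, whose motifs contain the letters ACGTG or GCGTG (HIF-1) and CACGTG (MYC). The 300 bases from 250 before to 50 after the RefSeq start of each gene were scanned (GRCm38.p6, 42 of 43 genes with a sequence). Where a gene has several listed starts, only the first was scanned. CACGTG stood in 3 genes (7.14%) and in 7.24% of 27025 promoters. ACGTG stood on either strand in 13 genes (31.0%, against 19.7%) and GCGTG in 24 (57.1%, against 32.5%), and every CACGTG also counts as ACGTG. Among the promoters scanned for the 42 genes, the only one with CACGTG at more than 1 place was that of *Ldha*, shown for this reason with the motif in capitals. The other genes with the motif were *Pfkm* and *Pcx*. Both *Ldha* and *Pcx* were among the 12 lower genes, and *Pfkm* was not.
Ldha, 145 bases before the start, GRCm38.p6, chr7:46845649-46845674, plus strand: tgtcgcagcaCACGTGgagccactct
Ldha, 48 bases before the start, GRCm38.p6, chr7:46845746-46845771, plus strand: gcccagcctaCACGTGggttcccgca
These coordinates span all the letters printed, and the distance is that of the first capital. A match is a description of the letters. Of 8 hypoxia-responsive genes outside glycolysis, 1 was lower and 0 were higher at an unadjusted p under 0.05 (median 0.20). Over all genes tested, 10.7% were lower and 10.7% higher at that limit. *Vegfa*, a growth factor of blood vessels, had 293, 252 and 245 CPM in WT and 200.04, 189, 149 and 205 CPM in KO (log2 fold change −0.51 ± 0.16, unadjusted p = 0.0130). *Ankrd37* (0.87 ± 0.48) and *Ndrg1* (0.28 ± 0.26) did not pass, and *Ankrd37* was below 1 CPM in all libraries.

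Phosphofructokinase is set by fructose 2,6-bisphosphate, which the bifunctional PFKFB enzymes make and remove, and 2 of their genes passed an adjusted p under 0.1 in opposite directions, with TMM and in sign also with library size alone. *Pfkfb3*, whose product mainly acts as the kinase, had 60.5, 117 and 94.7 CPM in WT and 199.93, 207, 234 and 164 CPM in KO. Every KO library lay above every WT library (log2 fold change 1.15 ± 0.24, adjusted p = 0.0752). *Pfkfb2* had 128, 91.4 and 93.0 CPM in WT and 51.9, 60.9, 61.0 and 69.7 CPM in KO, with every KO library below (log2 fold change −0.78 ± 0.17, adjusted p = 0.0793). *Pck1*, which makes phosphoenolpyruvate from oxaloacetate and is also an adipocyte gene of glyceroneogenesis, had 150.2, 318 and 192 CPM in WT and 401, 475, 349 and 307 CPM in KO (log2 fold change 0.80 ± 0.28, unadjusted p = 0.0178). Only KO replicate 4 fell inside its WT range. Of the 19 other glycolytic and gluconeogenic genes listed, 14 could be tested, with a median of 0.29. At an unadjusted p under 0.05, 3 were lower and 2 higher, beside 10.7% and 10.7% of all genes tested. *Hkdc1*, *Pklr* and *Fbp1* were among those too low to test.

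In the pentose phosphate pathway all 7 genes had negative fold changes with TMM (median −0.35). With library size alone *Pgls*, *Rpia*, *Tkt* and *Taldo1* turned positive and the median was 0.03. With TMM, 3 were lower at an unadjusted p under 0.05 and 4 did not overlap between genotypes. Over all genes tested, 10.7% were lower at that limit and 9.62% had every KO library below every WT library. The oxidative branch makes NADPH at both of its dehydrogenases. *G6pdx*, glucose 6-phosphate dehydrogenase, the entry step, had 130.0, 67.7 and 117 CPM in WT and 77.0, 68.7, 53.3 and 55.3 CPM in KO (log2 fold change −0.72 ± 0.24, unadjusted p = 0.0137, adjusted p = 0.139). WT replicate 2 lay among the KO libraries, and 13.6% of the exon bases overlap *Ikbkg* on the other strand. *Pgd*, 6-phosphogluconate dehydrogenase (chr4:148524100-148540880), had 465, 366 and 402 CPM in WT and 203, 201, 244 and 281 CPM in KO, without overlap (log2 fold change −0.82 ± 0.18, adjusted p = 0.0793). *Pgls*, the lactonase between them, had 71.5 ± 7.70 and 68.9 ± 13.02 CPM (log2 fold change −0.05 ± 0.17) and shares 20.6% of its exon bases with *Fam129c*.

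The non-oxidative branch rearranges pentose phosphates into glycolytic intermediates. *Rpe*, ribulose phosphate epimerase, had 47.1, 33.6 and 42.9 CPM in WT and 26.3, 26.6, 27.0 and 31.5 CPM in KO, without overlap (log2 fold change −0.56 ± 0.15, adjusted p = 0.0972), and 18.1% of its exon bases overlap *1110028C15Rik*. *Rpia*, ribose phosphate isomerase, had 37.9, 35.9 and 32.3 CPM in WT and 31.8, 29.8, 27.0 and 30.2 CPM in KO (log2 fold change −0.25 ± 0.13, unadjusted p = 0.0786). *Tkt*, transketolase, had 765, 652 and 596 CPM in WT and 426, 577, 576 and 519 CPM in KO (log2 fold change −0.35 ± 0.19, unadjusted p = 0.0897). In *Rpia* and *Tkt* the KO libraries lay just under the WT libraries, yet neither passed at an unadjusted p under 0.05. *Taldo1*, transaldolase, had 389 ± 11.9 and 345 ± 98.7 CPM (log2 fold change −0.17 ± 0.22), and its highest library was KO replicate 4. Of 9 other genes around this pathway, 7 could be tested. At an unadjusted p under 0.05, 2 were lower and 0 higher, beside 10.7% and 10.7% of all genes tested. *Shpk*, sedoheptulokinase (−0.45 ± 0.14, unadjusted p = 0.0113), and *Me1*, the cytosolic malic enzyme, another source of NADPH (−0.61 ± 0.24, unadjusted p = 0.0322), were the 2, and *H6pd* of the endoplasmic reticulum had a log2 fold change of 0.34 ± 0.31. The transketolase-like genes *Tktl1* and *Tktl2* were too low to test.

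The 4 subunit genes of pyruvate dehydrogenase, the complex that commits pyruvate to acetyl-CoA, were all lower at an unadjusted p under 0.05, and in all 4 every KO library lay below every WT library (median log2 fold change −0.73, and −0.35 with library size alone). The shares over all genes tested were 10.7% and 9.62%. *Pdhb* (chr14:8998505-9005506), the beta subunit of the first enzyme of the complex, had 457, 263 and 323 CPM in WT and 120.3, 132, 109 and 148 CPM in KO. Its log2 fold change was −1.45 ± 0.21, and its adjusted p of 0.0517, the lowest of the 43, ranged from 6.50e-07 to 0.304 over the alternatives. *Pdha1*, its alpha partner on the X chromosome, had 312, 238 and 255.87 CPM in WT and 203, 214, 184 and 200.25 CPM in KO (log2 fold change −0.42 ± 0.15, unadjusted p = 0.0219). Both subunits are assembled together in the protein, and their fold changes differed in size, though this difference was not tested and 15.98% of the exon bases of *Pdha1* overlap *Map3k15*. *Dlat*, the acetyltransferase core, had 251, 176 and 185 CPM in WT and 98.9, 139, 86.2 and 122 CPM in KO (log2 fold change −0.87 ± 0.21, adjusted p = 0.0848). *Dld*, the dehydrogenase shared with the 2-oxoglutarate complex, had 166, 109.7 and 137 CPM in WT and 88.0, 89.9, 87.8 and 98.5 CPM in KO (log2 fold change −0.59 ± 0.16, adjusted p = 0.0972).

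Pyruvate dehydrogenase is switched off by the PDK kinases and on by the PDP phosphatases. *Pdk1* had 95.7, 70.6 and 74.1 CPM in WT and 52.7, 55.6, 72.0 and 61.5 CPM in KO (log2 fold change −0.41 ± 0.16, unadjusted p = 0.0360). *Pdk4*, the kinase known to be induced by fasting and fatty acids, had 37.2, 117 and 33.2 CPM in WT and 121, 273, 216 and 221 CPM in KO. Every KO library lay above every WT library, although WT replicate 2 came close to KO replicate 1 (log2 fold change 1.74 ± 0.47, adjusted p = 0.0991). *Pdhx*, which anchors *Dld* protein in the complex, had 43.7, 25.1 and 34.3 CPM in WT and 16.9, 22.2, 17.0 and 21.7 CPM in KO, without overlap (log2 fold change −0.82 ± 0.21, adjusted p = 0.0897). The phosphatase gene *Pdp2* had 15.3, 4.56 and 12.1 CPM in WT and 4.25, 4.90, 4.46 and 2.85 CPM in KO (log2 fold change −1.37 ± 0.38, unadjusted p = 0.00627), and WT replicate 2 again lay with the KO libraries. Of the 19 other genes of pyruvate use and the TCA cycle, all tested, 7 were lower and 1, *Pdk4*, was higher at an unadjusted p under 0.05 (median −0.16). Over all genes tested, 10.7% were lower and 10.7% higher at that limit. Besides *Pdhx* and *Pdp2* the 7 included *Mpc1* and *Mpc2* of the mitochondrial pyruvate carrier, *Sdhb* and the citrate exporter *Slc25a1*, named after their values were seen.

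**Figure D3:**
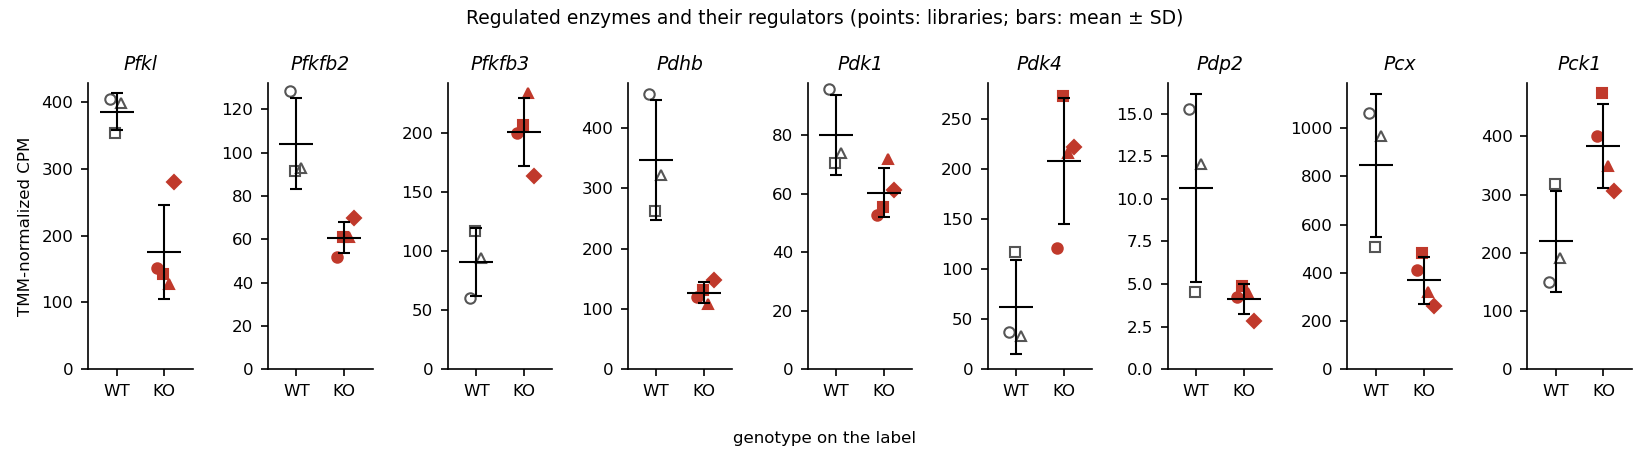
TMM-scaled CPM of regulated enzymes and of their regulators in each library (circle, square, triangle and diamond for replicates 1 to 4, open grey for WT, filled red for KO), with the mean and SD as bars, each vertical axis starting at 0. *Pfkfb3* and *Pdk4* lie above WT in every KO library, and *Pfkl*, *Pfkfb2*, *Pdhb* and *Pcx* lie below.

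*Pcx* (chr19:4510472-4621752), pyruvate carboxylase, makes the oxaloacetate that condenses with acetyl-CoA. It had 1062, 509 and 968 CPM in WT and 414, 481, 322 and 261 CPM in KO. The groups did not overlap, but WT replicate 2 lay just above KO replicate 2 (log2 fold change −1.20 ± 0.30, adjusted p = 0.0895, 0.00383 to 0.347 over the alternatives). *Cs*, citrate synthase, had 393, 255.75 and 319 CPM in WT and 266, 248, 212 and 249.9 CPM in KO (log2 fold change −0.40 ± 0.18, unadjusted p = 0.0541). WT replicate 2 lay within the KO range of *Cs*, which did not pass.

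The enzymes of the cycle inside the mitochondrion had small fold changes. Of 11 genes, 3 were lower at an unadjusted p under 0.05, 0 passed an adjusted p under 0.1, and the median was −0.23 (0.13 with library size alone). Over all genes tested, 10.7% were lower at the first limit and 3.22% at the second. *Idh3a*, the catalytic subunit of NAD isocitrate dehydrogenase, had 73.4, 44.7 and 90.1 CPM in WT and 58.1, 54.0, 42.5 and 48.1 CPM in KO (log2 fold change −0.45 ± 0.23). Its partner subunit genes had 127 ± 8.01 and 102 ± 10.6 CPM for *Idh3b* (log2 fold change −0.31 ± 0.14, unadjusted p = 0.0481, but 0.06 with library size alone). For *Idh3g* the values were 126 ± 3.33 and 108 ± 12.7 CPM (log2 fold change −0.22 ± 0.14). *Ogdh*, of the 2-oxoglutarate dehydrogenase complex, had 157, 165 and 181 CPM in WT and 152, 177, 159 and 158 CPM in KO, a narrow and overlapping spread (log2 fold change −0.06 ± 0.13). *Suclg2*, the GTP-forming subunit of succinyl-CoA ligase, had 92.2, 61.0 and 72.1 CPM in WT and 51.2, 55.2, 48.5 and 47.0 CPM in KO, without overlap (log2 fold change −0.57 ± 0.16, unadjusted p = 0.00609). *Sucla2*, the ATP-forming subunit, had 59.0, 57.7 and 58.5 CPM in WT and 43.3, 53.7, 58.9 and 63.1 CPM in KO (log2 fold change −0.09 ± 0.15). Their shared subunit *Suclg1* was at 84.2 ± 9.65 and 65.4 ± 6.97 CPM (log2 fold change −0.37 ± 0.14, unadjusted p = 0.0308, and 0.00 with library size alone). Fumarate hydratase, *Fh1*, had 56.4 ± 2.02 and 51.3 ± 7.22 CPM (log2 fold change −0.14 ± 0.15). *Mdh2*, the mitochondrial malate dehydrogenase, had 185, 169 and 212 CPM in WT and 158, 155, 136 and 194 CPM in KO (log2 fold change −0.23 ± 0.17). *Idh2*, the mitochondrial NADP isocitrate dehydrogenase, had 112, 122 and 97.8 CPM in WT and 87.9, 107, 119.8 and 151 CPM in KO (log2 fold change 0.07 ± 0.19), with its lowest and its highest library both in KO.

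Outside the mitochondrion, 3 of the 43 genes encode counterparts of cycle enzymes. *Mdh1* (chr11:21456790-21472370), cytosolic malate dehydrogenase of the malate shuttle, had 404, 281 and 398 CPM in WT and 151, 214, 187 and 228 CPM in KO, without overlap (log2 fold change −0.89 ± 0.20, adjusted p = 0.0808). *Idh1*, which makes cytosolic NADPH, had 56.3, 60.3 and 65.7 CPM in WT and 57.5, 83.2, 78.7 and 76.7 CPM in KO. KO replicates 2 to 4 were above all WT libraries and KO replicate 1 was within them (log2 fold change 0.28 ± 0.16, unadjusted p = 0.104). *Aco1*, the cytosolic aconitase that also serves as an iron sensor, had 155 ± 18.3 and 128 ± 13.1 CPM (log2 fold change −0.28 ± 0.15).

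**Figure D4:**
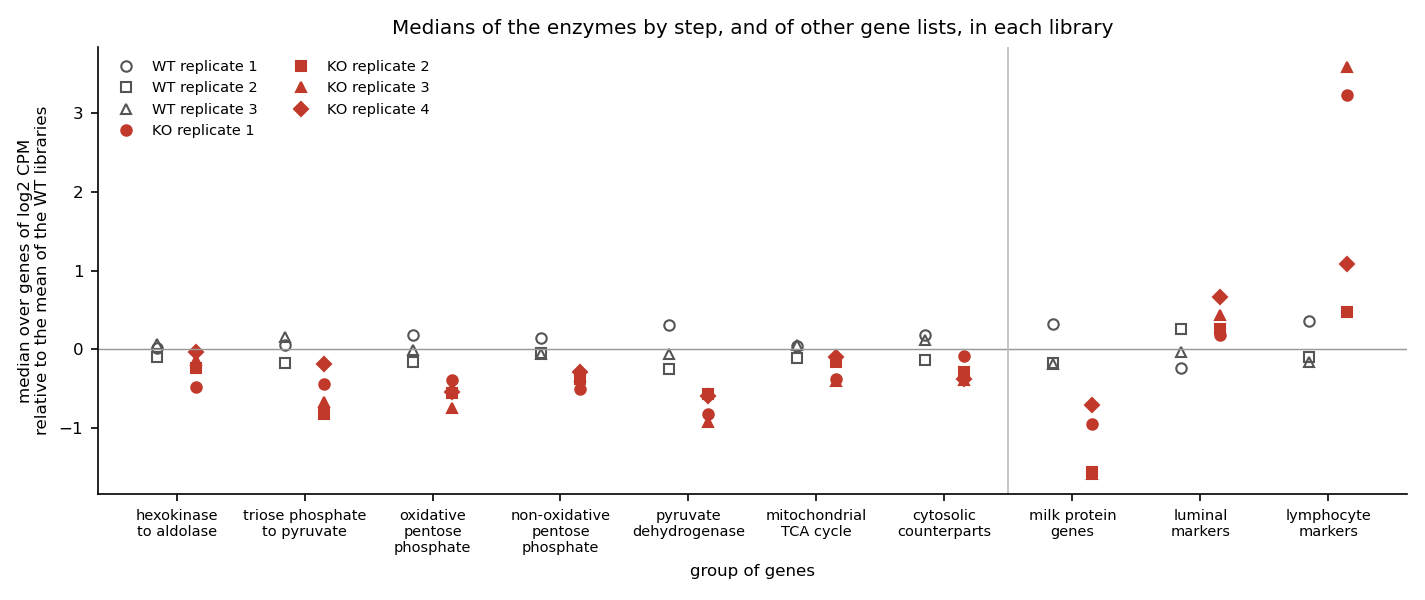
Median over the genes of each group of log2 CPM (TMM) relative to the WT mean, in each library, for groups of steps (left of the line) and for milk protein genes, luminal markers and lymphocyte markers (right). The 4 pyruvate dehydrogenase genes lie at −0.57 to −0.93 in KO and the 11 mitochondrial TCA genes at −0.10 to −0.41, while lymphocyte markers reach 3.59 in KO replicate 3.

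The 3 pathways had medians of the fold change close to each other, −0.39 for glycolysis, −0.35 for the pentose phosphate pathway and −0.38 for pyruvate to TCA (−0.04, 0.03 and −0.01 with library size alone), and no difference between them was tested. At an unadjusted p under 0.05, 8 of 16, 3 of 7 and 10 of 20 genes were lower, and 6, 4 and 9 did not overlap between genotypes. Over all genes tested, 10.7% were lower at that limit and 9.62% had every KO library below every WT library. The KO libraries spread most in glycolysis. The glycolysis median relative to WT was −0.55, −0.72, −0.56 and −0.10 in KO replicates 1 to 4, so KO replicate 4 stood near WT. For the pentose phosphate pathway the values were −0.39, −0.52, −0.39 and −0.36, and for pyruvate to TCA −0.44, −0.31, −0.49 and −0.36, with no KO library apart. Within the third group, the pyruvate dehydrogenase genes summed to 957.9 ± 206.2 CPM in WT and 530.4 ± 51.4 in KO, 44.6% lower, and the mitochondrial TCA genes to 1386 ± 123.2 and 1165 ± 83.9, 15.95% lower. Over all genes tested the sum was 22.7% lower with TMM, a value that follows from the scaling factors. With library size alone the pyruvate dehydrogenase sum was 27.8% lower and the mitochondrial TCA sum 8.79% higher. These groups of steps were drawn with the values in view.

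Where a reaction has several genes, the ratio of their RPKM did not overlap between genotypes in 5 of 8 pairs. The share over other pairs of genes was not computed. In these 5 the numerators, *Hk2*, *Pfkl*, *Aldoc* and *Mdh1*, were each lower at an adjusted p under 0.1 in the edgeR quasi-likelihood test. The ratios therefore reuse the counts behind those calls. *Hk2* over *Hk1* was 1.29, 0.464 and 0.739 in WT and 0.401, 0.407, 0.172 and 0.240 in KO. *Pfkl* over *Pfkp* was 25.3, 35.8 and 28.03 in WT and 6.44, 9.71, 7.01 and 22.3 in KO, and over *Pfkm* it averaged 10.2 ± 2.86 and 4.69 ± 1.75. *Aldoc* over *Aldoa* was 2.14, 1.17 and 1.12 in WT and 0.446, 0.602, 0.390 and 0.645 in KO, so that *Aldoc* was the more abundant aldolase mRNA in every WT library and *Aldoa* in every KO library. *Mdh1* over *Mdh2* averaged 1.55 ± 0.214 in WT and 0.994 ± 0.166 in KO. In these 5 pairs every KO ratio was lower than every WT ratio, and since a ratio within a library does not depend on the scaling, the same holds with library size alone. The pairs *Ldhb* over *Ldha* (0.112 ± 0.0261 and 0.174 ± 0.0427), *Idh1* over *Idh2* (0.569 ± 0.103 and 0.665 ± 0.113) and *Suclg2* over *Sucla2* (1.51 ± 0.303 and 1.11 ± 0.235) overlapped. No test was run on the ratios, since with 3 libraries against 4 an exact two-sided permutation test cannot go below p = 0.0571.

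**Figure D5:**
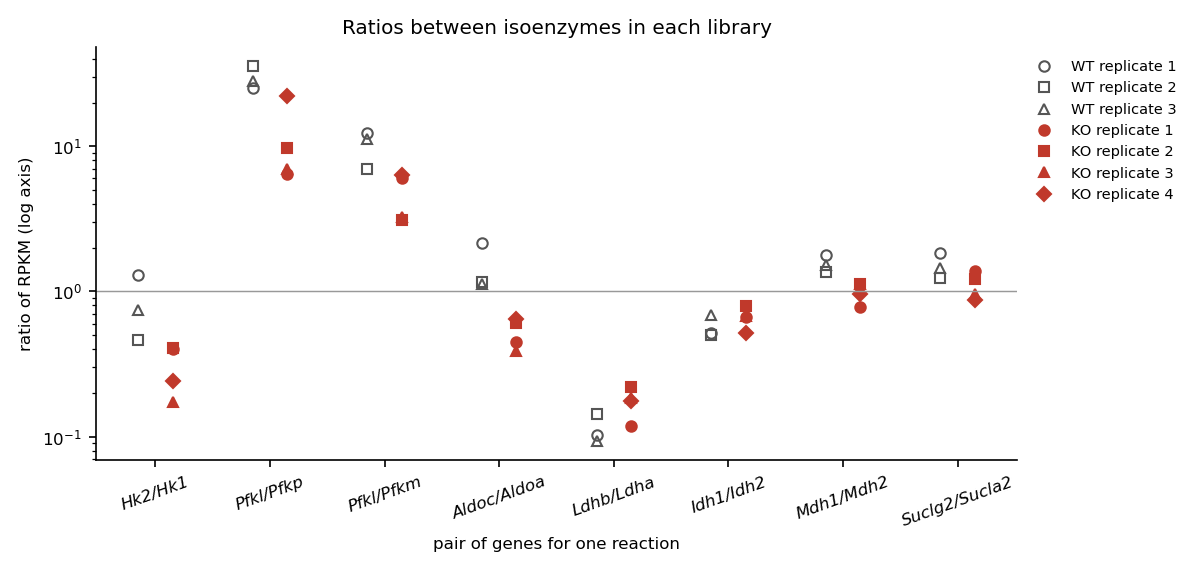
Ratio of RPKM between genes for one reaction in each library, on a log axis, with open grey symbols for WT and filled red symbols for KO. In *Hk2*/*Hk1*, both *Pfkl* pairs, *Aldoc*/*Aldoa* and *Mdh1*/*Mdh2* every KO symbol lies under every WT symbol, and the other 3 pairs overlap.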

How the data were processed

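The authors mapped reads from whole mammary gland RNA with STAR (version 2.5.2a in the submitters' processing notes) to mm9 and deposited raw counts per gene, made with featureCounts 1.4.6-p5 on exons of GENCODE vM1 without strand, per the file headers. Reads placed at several sites or overlapping several genes were not counted. Following the study, 37 mitochondrial and 580 ribosomal genes were left out, and a gene was tested if 4 or more of the 7 libraries held 5 or more counts, which gave 17175. Genotypes were compared with the quasi-likelihood test of edgeR 4.0.16 (R 4.3.3) after TMM scaling, with Benjamini-Hochberg adjustment over all genes tested. Standard errors are the absolute log2 fold change over the square root of F. The exact test of edgeR, DESeq2 1.42.0, other scalings and filters and leaving out each library were alternatives. RPKM used the exon lengths in the deposited table. All 43 genes were described, with values in every library for those at regulated steps, for pairs of isoenzymes, and for the 4 of lowest p in each pathway, and the 3 of lowest p were named from each list of other genes. The members and lists were chosen with earlier results of these data known. Labels do not say that libraries came from separate mice, while the legend of the study's heatmap gives 3 WT and 4 KO mice at L1. The p-values measure the spread between these samples.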

Additional observations from a re-analysis of the deposited data

Results flagged for a closer look

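In 3 genes KO replicate 4 stood apart from the other KO libraries by Dixon's test at its 95% level. *Tpi1* was at 231.2 CPM there and at 164.5 to 167.1 CPM in KO replicates 1 to 3. *Eno1* was at 608.3 CPM there and at 461.8 to 483.7 CPM in the others, and *Rpe* at 31.5 CPM there and at 26.3 to 27.0 CPM in the others. In all 3 genes the high value lay on the side of WT. Of 47 items tested, chance flags about 1 in 20, and what sets KO replicate 4 apart was not tested.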

How the results depend on the processing

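The count at the limits of the study, 0, was 5 with edgeR's exact test, 5 with DESeq2, 12 at an adjusted p under 0.1 without a limit on the fold change and 0 at an adjusted p under 0.05. The 21 genes lower at an unadjusted p under 0.05 became 10 with library size alone and 14 to 25 with each library left out in turn (14 without WT replicate 1 and 25 without KO replicate 4), while the share of all genes went from 10.7% to 3.05% and to 5.73% to 12.2%. The 0 higher genes became 2 (*Idh1* and *Pfkp*) with library size alone, 1 (*Idh1*) with library size without the milk protein genes, an alternative chosen after seeing the data, and 0 to 1 (*Idh1*, without KO replicate 1) with each library left out. With library size alone the medians of glycolysis, pentose phosphate and pyruvate to TCA were −0.0369, 0.0336 and −0.0061, *Idh3b* turned to 0.0573 and *Suclg1* to 0.0026, and the median of all genes was 0.42. With library size without milk protein genes the pentose phosphate median was −0.22 and the pyruvate to TCA median −0.25, beside 0.19 over all genes. Within lane 4 they were −0.25 and −0.14. With each library left out the medians were −0.55 to −0.33, −0.43 to −0.25 and −0.47 to −0.28. Replicate numbers did not pair the samples (correlations of deviations 0.35, 0.09 and −0.06), and not every library correlated best with its own number. With the replicate number as a block, 20 genes were lower and 1, *Pfkp*, was higher by the unadjusted p, and 13 passed the adjusted limit of 0.1, with KO replicate 4 alone in its block. In that fit 11.8% of all genes were lower by the unadjusted p. The adjusted limit was passed by 2028 of all genes, beside 933 in the main fit. DESeq2 size factors, upper quartile scaling, both filters, keeping mitochondrial and ribosomal genes and the bias-adjusted test gave 19 to 22 lower genes. The share of all genes that were lower was then 7.79% to 11.5%.

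The standard errors of the 43 lay between 0.13 for *Rpia*, at 29.7 CPM in KO, and 0.36 for *Hk2*, at 23.9 CPM.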
